A study of Mus musculus with 6 samples.

Results

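The 4 control libraries described here were made from cells of mouse embryos on day E11.5 that had switched on Cre recombinase under Nkx2-1 control. They are 4 of the 6 libraries of a study of Magoh dosage in the medial ganglionic eminence (MGE), and they were chosen by genotype alone: each carries Nkx2.1-Cre and the ROSAloxSTOPloxTdTomato reporter, and none carries the floxed Magoh allele that the other 2 libraries have. All 6 are on a C57BL/6 background, and the labels name no treatment. Fluorescent telencephalic cells were collected in a sorter and their RNA was sequenced. The labels name the cells MGE cells. They do not say whether each library came from 1 embryo, so the spread between libraries may in part be technical.

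The MGE is a ventral swelling of the embryonic forebrain that gives rise to most cortical interneurons containing parvalbumin or somatostatin, and to neurons of the globus pallidus and basal forebrain. Nkx2-1 is the homeodomain factor that defines it. Its targets Lhx6 and Lhx8 are LIM-homeodomain factors that direct descendants towards cortical interneurons and towards striatal and cholinergic neurons, and Dlx1 and Dlx2 act throughout the ganglionic eminences to promote a GABAergic fate. Nkx2-1 is also active in the ventral hypothalamus, the preoptic area, the thyroid and the lung. A Cre reporter is permanent, so it also marks descendants that have since lost Nkx2-1.

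Levels are given as CPM, the counts of a gene per 1000000 counts of its library, after TMM scaling, which corrects each library for its composition. Where levels of different genes are compared, CPM were divided by the length of the gene's exons (CPM per kb). This length joins the exons of all annotated transcripts and can exceed that of the message. Levels per kb, and ranks by them, are uncertain to that extent. The gene said to lead a list is that of highest CPM, a value that also depends on length. A gene was called detected when it had at least 1 CPM in each of the 4 libraries. Values after ± are the SD over the 4 libraries (n = 4), and spread is the SD of log2 CPM over the same libraries. With a single group there was no comparison to test, so the account is a description throughout.

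All 5 marker genes of the sorted lineage were detected in all 4 libraries, where 32.1% of all 38561 genes in the table and 54.9% of protein-coding genes were. Nkx2-1 (GRCm38 chromosome 12, 56531958 to 56536908, minus strand) had 455, 369, 560.1 and 342 CPM in controls 1 to 4. At 152 CPM per kb it stood at rank 230 of the genes with a known exon length. Dlx2 (chromosome 2, 71543408 to 71546754, minus strand) had 372, 323, 321 and 162 CPM, and its neighbour Dlx1 (chromosome 2, 71528113 to 71533981, plus strand) had 152, 139, 143 and 76.1 CPM. Control 4 was the lowest library for each of these 3 genes, and controls 1 to 3 lay close together for Dlx1 and Dlx2.

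Lhx8 (chromosome 3, 154306294 to 154330659, minus strand) had 88.7, 133, 105 and 42.7 CPM. Lhx6 (chromosome 2, 36081953 to 36105408, minus strand) had 111, 68.8, 99.2 and 51.8 CPM. Control 4 was again the lowest library for both. Per length the order was Nkx2-1 at 152 ± 34.7, Dlx2 at 103 ± 31.9, Lhx8 at 36.5 ± 14.97, Dlx1 at 23.6 ± 6.41 and Lhx6 at 17.2 ± 5.64 CPM per kb. The ranges of Nkx2-1 and Dlx2 over the 4 libraries overlapped with each other and lay above those of the other 3 genes, which overlapped among themselves. The summed level of the 5 markers was 1178, 1032, 1228 and 674.5 CPM, and without control 4 it stayed between 1032 and 1228.

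Libraries held 37429290 to 44198702 counts, so that 0 reads of a gene allow a level of up to 3 counts, which is 0.0661 to 0.0819 CPM. These floors cover counting error only. Mitochondrial genes took 1.98 to 3.51% of counts, and the 100 most abundant genes took 19.7 to 26.5%. A pair of libraries stood apart. In control 2, genes with 8000 bases of exon or more were low and genes under 1500 bases were high, and the median log2 deviation from the other 3 libraries differed between these classes by -1.02, against 0.35, 0.51 and 0.15 in controls 1, 3 and 4. It was also the library with Xist, the RNA that coats the inactive X chromosome, at 92.5 CPM, against at most 0.0441 in the others, and the one with 0 reads of the Y-linked genes Kdm5d, Ddx3y and Uty. Control 4 was the lowest library for the markers above and the highest for macrophage and globin genes, whose values are given below. Some results that rest on either library are given with and without it, and others only as values of each library or as counts over all 4. The shares over all genes that stand beside counts of list members below are not matched for exon length. How far the counts for control 2 depart from these shares through exon length was not tested.

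**Figure D1:**
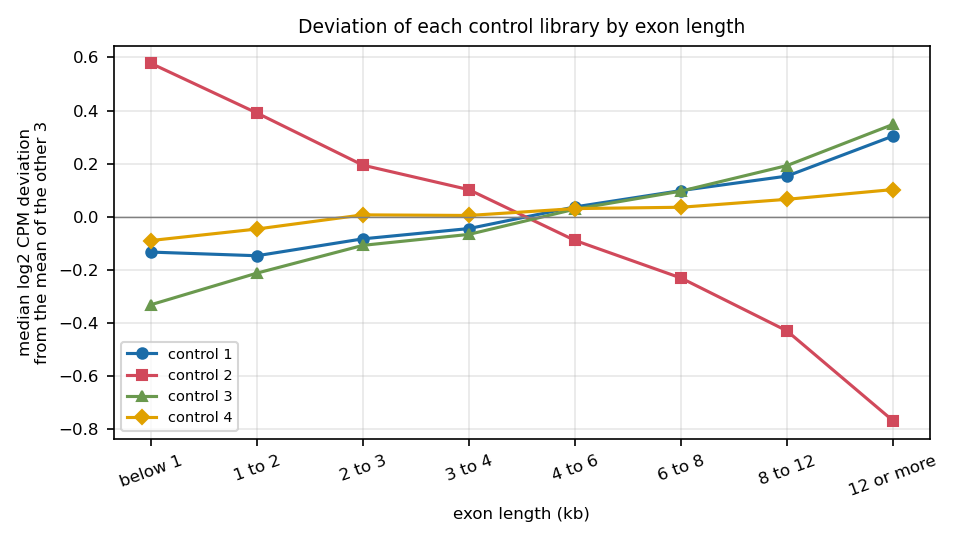
Median deviation of log2 CPM from the mean of the other 3 control libraries, for genes averaging at least 1 CPM in 8 classes of exon length (kb). Control 2 runs from 0.58 in the shortest class to -0.77 in the longest, against -0.13, -0.33 and -0.090 in the shortest class and 0.30, 0.35 and 0.10 in the longest for controls 1, 3 and 4.

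In all, 12381 genes were detected, 11668 of them protein-coding. Counts of detected list members are to be read beside the 54.9% of all protein-coding genes that were detected. Of the 38561 genes, 17207 had no read in any control, 8685 had at least 10 CPM in each library, 1657 had at least 100 and 48 had at least 1000. Protein-coding genes took 90.4 to 94.8% of counts. Among non-coding classes, 103 of 1609 long intergenic RNA genes, 93 of 1760 antisense genes and 239 of 4349 processed pseudogenes were detected, and reads of a pseudogene cannot be told apart with certainty from those of its parent.

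Eef1a1, the elongation factor that brings aminoacyl-tRNA to the ribosome, led the nuclear protein-coding genes with 9434, 13210.5, 9226 and 10522 CPM. Tuba1a, the alpha-tubulin of young neurons, followed with 5847, 8615, 4494 and 4992 CPM and the beta-tubulin Tubb5 with 4714, 5924, 4411 and 4573 CPM. Control 2 was the highest library for all 3. Tuba1a has a near-identical relative, Tuba1b, so reads may have been split between them. Eef2, which moves the ribosome along the message, had 4241 ± 317 CPM, Actb 3318 ± 242 CPM, the glycolytic enzymes Gapdh and Pkm 3040.1 ± 176 and 2371 ± 168 CPM, and the chaperones Hsp90ab1 and Hspa8 3037 ± 590.2 and 2333 ± 130.2 CPM. Hspa8, Gapdh and Pkm varied little between libraries (spread 0.082, 0.085 and 0.10 on the log2 scale), as did the splicing regulator Hnrnpa1 with 1871, 1898, 1813 and 1932 CPM (spread 0.039). The scaffold Map1b, which binds microtubules in growing axons, was the gene of the leading 20 that varied most, with 2737, 769.7, 2615 and 2047 CPM. Its exons span 15846 bases, and control 2 lay far below the other 3.

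**Figure D2:**
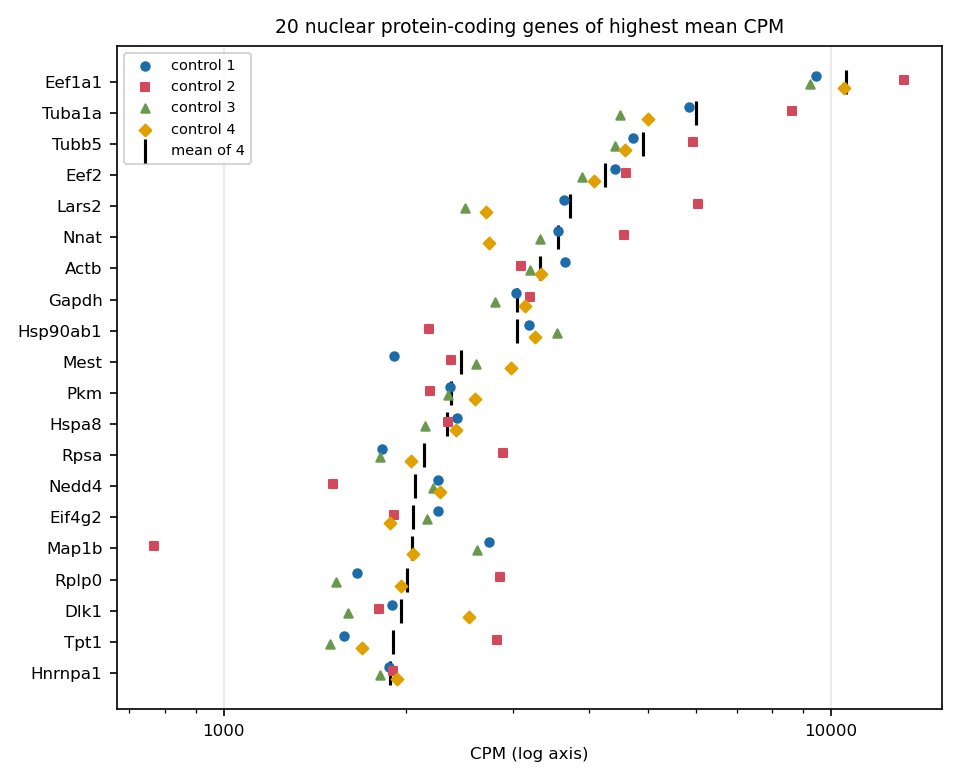
CPM (log axis) of the 20 nuclear protein-coding genes with the highest mean, with 1 symbol per control library and a bar at the mean of 4. Control 2 is among others the highest library for Eef1a1, Tuba1a, Tubb5, Lars2, Rpsa, Rplp0 and Tpt1 and the lowest for Map1b, Nedd4 and Hsp90ab1.

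Of the same 20 genes, 3 are imprinted genes, which are read from a single parental copy. Nnat, a membrane protein of developing neurons, had 3558, 4570.4, 3323 and 2735 CPM, with control 4 lowest. Mest, a paternally expressed gene of the hydrolase family, had 1909, 2368, 2603 and 2968 CPM, and Dlk1, a Notch-like transmembrane protein, had 1897, 1799.8, 1602 and 2533 CPM. For both of these control 4 was the highest library. Cdkn1c, an imprinted cell cycle inhibitor, had 979 ± 116 CPM, the most of any inhibitor on the list of G1 regulators. The imprinted non-coding RNAs Rian, Meg3 and H19 had 319 ± 51.9, 176 ± 96.2 and 48.3 ± 18.2 CPM. This group was named after its values were seen.

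Divided by length, the leading nuclear protein-coding genes were Eef1a1 (4251 CPM per kb), Tuba1a (3321), the ribosomal stalk protein Rplp1 (2235), Nnat (1939), Tubb5 (1474), Eef2 (1276), Rps15 (1241), Actb (1238), Rplp0 (1207) and the actin-binding protein Marcksl1 (1134). Cytosolic ribosomal protein genes were detected for 82 of 87 and had a median of 296 CPM per kb, against 6.57 over all detected genes. Their summed level was 42797, 70376, 40616 and 48209 CPM in controls 1 to 4. Control 2 was the highest library for 81 of the 82 members averaging at least 1 CPM, where it was highest for 37.4% of all 13163 such genes. That share is not matched for exon length. Many ribosomal protein genes and Eef1a1 have processed pseudogenes, so their counts are uncertain to that extent.

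Messages of the translation machinery often begin with a run of pyrimidines that places them under joint control of translation. The sequences below run from 10 bases before the annotated start to 20 bases from it on the gene's own strand (RefSeq, GRCm38.p6). Capitals show where the run CTCTT, the run CTTCC or the run CTTTC lies in this window in abundant translation genes. Capitals span the annotated start in Eef1a1, Rpl7a and Rps9. In Eef2 and Rpl13a they lie wholly after the annotated start. Where the messages of these cells begin was not tested. Shown are the 5 genes that hold such a run among the 10 with an annotated start that were searched, and, for contrast, the 2 of highest CPM that do not. Starts on a single chromosome were left out of these 10 but not of the shares given below.
Eef1a1, chr9:78481705-78481734, minus strand: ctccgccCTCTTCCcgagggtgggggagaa
Eef2, chr10:81176621-81176650, plus strand: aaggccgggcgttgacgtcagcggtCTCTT
Rpl7a, chr2:26910797-26910826, plus strand: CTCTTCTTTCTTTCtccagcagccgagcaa
Rpl13a, chr7:45128726-45128755, minus strand: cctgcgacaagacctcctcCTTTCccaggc
Rps9, chr7:3704031-3704060, plus strand: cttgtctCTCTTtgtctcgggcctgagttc
Rpsa, chr9:120127756-120127785, plus strand: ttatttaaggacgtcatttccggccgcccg
Rplp0, chr5:115559457-115559486, plus strand: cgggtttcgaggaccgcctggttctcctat

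One of the 3 runs, which may overlap as in Rpl7a, was present in 29 of 75 annotated starts of cytosolic ribosomal protein genes (38.7%), and in 12.6% of all 32851 starts. A run was counted anywhere in the 30 bases, also wholly before or after the annotated start. These shares are therefore not those of messages that begin with pyrimidines. On the opposite strand the shares were 14.7% and 13.4%. The starts covered 63 of the 87 ribosomal protein genes. Rpsa and Rplp0 led the ribosomal protein genes with 2138 and 2003 CPM and held none of the 3 runs in this window, which says only that these letters are not there.

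Several genes near the head of the CPM order are known to collect reads of ribosomal RNA. RP23-81C12.3 (Gm42418 in GENCODE M21), a long intergenic RNA gene that overlaps ribosomal DNA sequence, had 41463, 57279, 29202 and 35301 CPM and was the highest of all. Gm23935 had 6502, 13699, 4131 and 4343 CPM and Mir5105 4365, 7904, 2704 and 3024 CPM. Lars2, which encodes the mitochondrial leucyl-tRNA synthetase but holds a ribosomal RNA-like repeat, had 3641, 6034, 2499.9 and 2708 CPM. For each of these genes control 2 was the highest library. Together with Gm24270 they took 3.99 to 8.39% of counts. How much of the Lars2 level was messenger RNA was not tested.

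Among 262 transcription regulators of the lists and families examined, Sox2, which maintains neural progenitors, had the highest level per length with 186 ± 19.4 CPM per kb, and the related Sox3 and Sox1 had 117 ± 18.4 and 54.1 ± 10.3. In CPM, Sox2 had 403, 324, 398 and 408, so that 3 of the 4 libraries nearly coincided and control 2 was lower. Nkx2-1 was second at 152 ± 34.7 CPM per kb, and its range overlapped with that of Sox2. Sox4 was the third at 143 ± 17.4 CPM per kb, and its relatives Sox12 and Sox11, likewise factors of young neurons, had 98.4 ± 11.04 and 60.8 ± 14.4.

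Olig2, expressed by ventral progenitors that later also form oligodendrocytes, had 234, 199.9, 256 and 113 CPM. Hes5, a Notch-driven repressor of proneural genes, had 139, 170.4, 151 and 81.5 CPM. Control 4 was the lowest library for both. The glial and progenitor factor Sox9 and the inhibitors of differentiation Id4 and Id3 were also among the leading 15, with 68.8 ± 24.7, 47.7 ± 6.78 and 47.9 ± 7.18 CPM per kb.

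**Figure D3:**
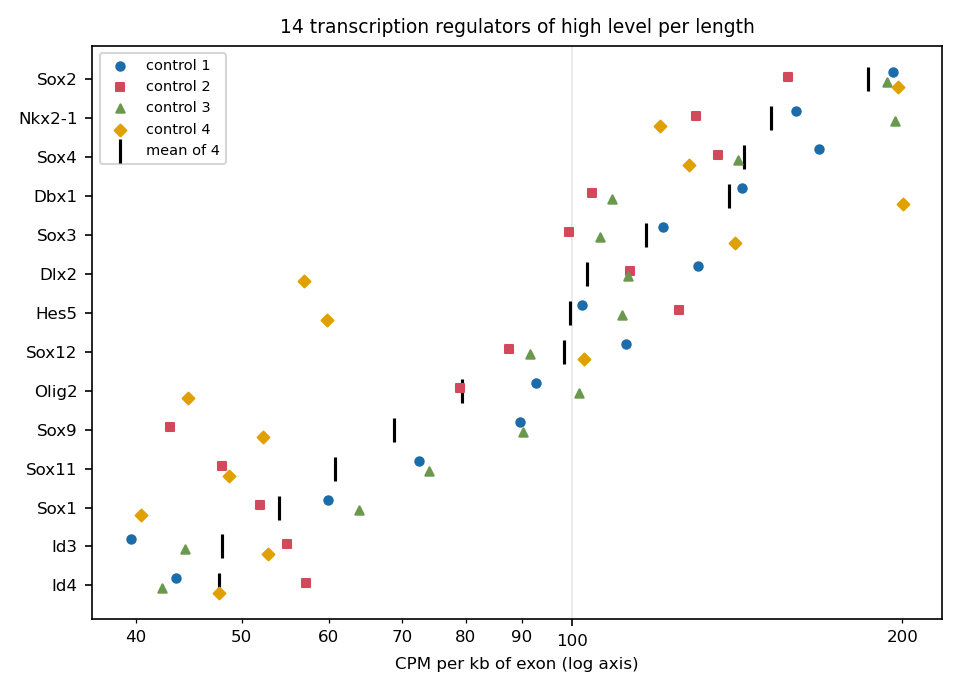
CPM per kb of exon (log axis) of 14 of the 15 regulators with the highest mean among 262, with 1 symbol per control library and a bar at the mean of 4. Nkx2-1, Sox4, Dlx2, Hes5, Olig2 and Sox1 are lowest in control 4, whereas Dbx1 and Sox3 are highest there.

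All 24 MGE identity genes were detected, with a median of 20.4 CPM per kb against 6.57 over all detected genes. Beside the markers, Zic1, a zinc finger factor of the septum and ventral forebrain, had 159.6, 179.6, 232 and 65.2 CPM, highest in control 3 and lowest in control 4. Sox6, a factor of MGE-derived interneurons, had 123, 66.3, 105 and 82.5 CPM, and the zinc finger factor Sp9 had 91.4, 51.2, 80.7 and 53.4 CPM. Both of these were highest in control 1 and lowest in control 2, with control 4 next to it. Otx2 and Six3, homeodomain factors of the anterior brain, were lowest in controls 1 and 2, with 111, 157, 156 and 128 and 161, 108, 175 and 171 CPM.

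Over the whole MGE list, control 4 was the lowest library for 19 of 24 members and the highest for 0, where it was lowest for 18.8% of all genes averaging at least 1 CPM. The summed level was 2925, 2455, 3070.0 and 1737 CPM in controls 1 to 4, and it stayed between 2455 and 3070 CPM without control 4. In bulk RNA, fewer cells of a kind and less RNA per cell cannot be told apart. The Zic family showed the pattern in all 5 members, each highest in control 3 and lowest in control 4. Gsx2, a factor of the lateral eminence and of early ventral progenitors, had 16.3, 14.2, 13.98 and 3.99 CPM, again with control 4 lowest.

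Factors of other forebrain regions were present beside the MGE genes. Of the hypothalamic and preoptic list, 24 of 25 genes were detected, with a median of 7.44 CPM per kb. Dbx1, a progenitor factor of the hypothalamus and preoptic area, was the fourth of the 262 regulators at 139 ± 44.4 CPM per kb and had 298, 218, 227 and 419 CPM. Nkx2-4, the hypothalamic relative of Nkx2-1, had 81.6, 63.3, 57.1 and 107 CPM, and Rax, a factor of the retina and hypothalamus, 79.8, 64.8, 60.9 and 134 CPM. Control 4 was the highest library for these 3. Tbx3, a repressor in the tuberal hypothalamus, had 72.5, 28.6, 64.8 and 127 CPM, also with control 4 highest and with control 2 lowest.

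Not every gene of the list was high in control 4. Otp, a factor of neuroendocrine neurons, had 56.1, 46.6, 30.6 and 28.1 CPM, and Isl1, shared by hypothalamic, striatal and cholinergic precursors, had 39.5, 48.2, 38.3 and 32.2 CPM, both with control 4 lowest. The eye and pituitary factor Six6 had 54.9, 41.9, 56.5 and 61.9 CPM, with control 2 lowest. Over the list, control 4 was highest for 10 and lowest for 7 of 24 members, where it was highest for 20.1% and lowest for 18.8% of all genes averaging at least 1 CPM. Control 3 was lowest for 10 of the 24, against 24.7% of all such genes. The summed level was 1206, 907, 953 and 1358 CPM. The only member not detected was Vax2, at 0.196 CPM. The label of the cells names the MGE, and the lineage also includes hypothalamic and preoptic cells. How much of each library they formed was not tested.

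Dorsal telencephalic genes were split. Emx1, the defining factor of the cortical primordium, had 0.5201 CPM, the cortical neuron factors Neurod2 and Neurod6 0.1904 and 0.00671 CPM, and the dorsal signal Wnt3a 0.174 CPM, so that none of these was detected. Pax6, the dorsal progenitor factor, was at 1.96, 1.86, 3.26 and 3.54 CPM. In contrast, Lhx2 had 179, 124, 161 and 191 CPM, Wnt8b 149, 95.4, 134 and 247 CPM, Fezf2 46.1, 32.3, 34.6 and 73.4 CPM and Emx2 33.1, 22.7, 28.9 and 57.9 CPM. These 4 genes are also active in other parts of the forebrain. Of the list, 16 of 21 genes were detected, and control 4 was the highest library for 13 of the 16 averaging at least 1 CPM, where it was highest for 20.1% of all such genes.

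All 18 genes of the lateral and caudal eminences were detected. Nr2f1 and Nr2f2, orphan receptors of the caudal eminence, had 148 ± 18.5 and 102 ± 21.7 CPM, Foxp4 180.3 ± 62.5 CPM, Prox1 64.2 ± 18.02 CPM and the striatal factor Meis2 51.03 ± 19.98 CPM. The median of the list was 3.92 CPM per kb, below that of the MGE list. Of the 18, 12 were lowest in control 2, the lowest library for 40.5% of all genes averaging at least 1 CPM.

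Hox genes, which pattern the hindbrain and trunk, were not detected. None of the 38 Hox genes was detected, 31 had 0 reads in all 4 libraries, and the highest, Hoxa13, had a mean of 0.0698 CPM. Families of forebrain factors were detected to different extents, where 54.9% of all protein-coding genes were detected. Detected members were 6 of 6 in the family of Six3, 5 of 5 in the Zic, 6 of 8 in the Lhx, 4 of 6 in the Dlx, 14 of 19 in the Sox, 23 of 44 in the Fox, 6 of 14 in the Nkx and 2 of 9 in the Pax family. The 2 detected Pax genes were Pax6 and Pax7, and both had under 4 CPM on average. Of 1100 olfactory receptor genes 0 were detected and 1091 had no read, and of 326 vomeronasal receptor genes 0 were detected and 320 had no read.

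All 29 progenitor genes were detected, with a median of 47.7 CPM per kb. Vim, the intermediate filament of radial glia, had 1669.5, 1509, 1498 and 1563 CPM and was among the steadier of them. Nes, the neural stem cell filament with 6416 bases of exon, had 1736, 540.4, 2007 and 1554 CPM, and the RNA-binding protein Msi1 had 772, 486, 771 and 657 CPM. Control 2 was the lowest library for both. Mki67, the marker of cycling cells, had 567, 67.7, 805 and 485 CPM, and the gap between control 2 and the others was wider.

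Notch signalling, in which ligands on young neurons hold neighbours in the progenitor state, was represented by 22 of 25 genes. Among receptors, Notch1 had 863, 472, 756 and 607 CPM, and Notch3 and Notch2 had 426 ± 44.1 and 184 ± 43.6 CPM. The ligand Dll1 had 131 ± 28.2 CPM, and the endothelial ligand Dll4 was not detected at 1.08 CPM. Rbpj, the DNA-binding partner of the cut receptor, had 152 ± 17.98 CPM. The target Hes1 had 50.8, 54.05, 51.7 and 82.6 CPM, with control 4 highest where it was lowest for the target Hes5, and Nrarp, a feedback inhibitor, had 264, 291, 235 and 159 CPM.

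Cell cycle genes were detected throughout: 44 of 44 S phase genes, 53 of 53 G2 and M phase genes and 24 of 26 regulators of G1. In S phase, the ribonucleotide reductase subunits Rrm2 and Rrm1 had 609.9 ± 82.95 and 478 ± 4.96 CPM, the helicase subunit Mcm7 407 ± 38.4 CPM and the clamp Pcna 369 ± 96.7 CPM. Rrm1, with 477, 477, 485 and 474 CPM, was among the 15 least variable of 9057 genes. That place was lost without control 2, and when the trend on exon length and GC content was removed. For G2 and M phase, Top2a had 719, 276, 772 and 656 CPM, Ncapd2 643, 369, 566 and 619.9 CPM and Ccna2 259, 299, 251 and 255 CPM. Control 2 was lowest for Top2a and Ncapd2 and highest for Ccna2. Their exons span 9013, 6267 and 4083 bases.

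Summed over the lists, S phase genes had 6002, 6265, 6403 and 6254 CPM and G2 and M phase genes 7621, 5063, 8158 and 7307 CPM. Control 2 stood within the range of the others for S phase and below them for G2 and M phase. It was the lowest library for 35 of 53 G2 and M phase genes, against 40.5% of all genes averaging at least 1 CPM. In G1, the kinase Cdk4 had 1020.4 ± 225 CPM, and the D cyclins Ccnd1, Ccnd2 and Ccnd3 had 874 ± 56.9, 858 ± 285 and 184 ± 9.56 CPM. Ccnd2 was highest in control 4 at 1267 CPM, against 605 to 783 in the others. The inhibitor Cdkn2a, silent in most embryonic cells, had 0 reads in all 4 libraries.

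Genes of young neurons were present next to those of progenitors, with 31 of 31 detected. Tubb3, the neuronal beta-tubulin, had 1329, 1526, 992 and 1024 CPM and Dcx, a microtubule protein of migrating neurons, 327, 354, 243 and 158 CPM. Stmn1 had 509 ± 60.6 CPM, Dpysl3 702 ± 142 CPM and the neurofilament-like Ina 228 ± 94.5 CPM. Control 1 was the highest library for 19 of the 31 genes, where it was highest for 18.4% of all genes, while control 2 was lowest for 13 and control 4 for 12, where they were lowest for 40.5% and 18.8% of all genes. The summed level was 7477, 6136, 5919 and 5191 CPM.

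Genes of GABAergic and interneuron maturation were present in part, and most subtype genes of mature interneurons were near 0. Of the list, 25 of 33 genes were detected, against 54.9% of all protein-coding genes. Slc32a1, the vesicular GABA transporter, had 74.2, 82.8, 58.7 and 37.7 CPM and Gad1, which makes GABA, 11.6 ± 6.15 CPM. The chemokine receptors Cxcr4 and Cxcr7, which guide migrating interneurons, had 63.6 ± 9.11 and 58.9 ± 15.9 CPM, the chromatin organiser Satb1 74.2 ± 15.8 CPM and the migration regulator Zeb2 88.3 ± 28.6 CPM. Among subtype genes, Vip had 0 reads, Pvalb, Cort and Htr3a had 0.0134, 0.0642 and 0.105 CPM, and Npy and Calb2 had 2.03 and 0.6303 CPM. Chat, the enzyme that makes acetylcholine, likewise had 0 reads, although the cholinergic factor Lhx8 was present.

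Sonic hedgehog is the ventral signal that induces Nkx2-1, and its pathway was present with its ligand: 16 of 17 genes were detected. Shh itself had 260.2, 260.1, 348 and 328 CPM. The receptor Ptch1, which is also a target of the signal, had 269, 229, 293 and 299 CPM, and the transducer Smo 266, 373, 277 and 351 CPM. All 3 varied by less than 2 times between libraries, and control 4 was not low for any of them. The effector Gli1 had 14.2, 8.66, 13.8 and 16.4 CPM, and Gli3, which acts mainly as a repressor, 93.3, 31.95, 95.9 and 113 CPM. Of 16 genes averaging 1 CPM or more, 13 were lowest in control 2, against 40.5% of all such genes.

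In the Wnt pathway 30 of 32 genes were detected. Ctnnb1, the transducer beta-catenin, had 1532 ± 92.9 CPM. Of 19 Wnt ligands 7 were detected, led by Wnt7b with 259, 276, 209 and 275 CPM and Wnt8b with 149, 95.4, 134 and 247 CPM, of which Wnt8b was highest in control 4. All 10 Frizzled receptors were detected, led by Fzd2 with 247 ± 29.6 CPM and Fzd3 with 202 ± 19.3 CPM. The antagonist Sfrp1 had 247 ± 35.4 CPM.

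The Fgf pathway had 19 of 23 genes detected. Receptors were led by Fgfr1 with 282 ± 65.04 CPM, and Fgfr4 was not detected at 0.872 CPM. The ligands differed in which library was high. Fgf15, a target of hedgehog signalling in ventral progenitors, had 31.8, 32.8, 57.01 and 6.63 CPM, with control 3 highest and control 4 lowest. Fgf10, a ligand of the hypothalamic midline, had 20.9, 17.02, 16.4 and 52.99 CPM, and Fgf8, a ligand of the anterior midline, 7.19, 6.99, 8.64 and 16.8 CPM, both highest in control 4. The feedback inhibitor Spry1 had 41.05, 36.8, 68.1 and 35.6 CPM.

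Guidance molecules were detected in 33 of 34 cases. The receptor Ephb2 had 741, 270.1, 691 and 731 CPM, the plexin Plxna1 504, 236, 481 and 459 CPM, and the secreted cues Slit2 and Ntn1 386, 214, 399.5 and 499 and 385, 204, 354 and 434 CPM. Controls 1, 3 and 4 lay close together for Ephb2, whose spread was 0.71 over all 4 and 0.053 without control 2. Of the 34 genes, 24 were lowest in control 2, against 40.5% of all genes averaging at least 1 CPM. Robo3 had 23.5, 17.3, 39.8 and 8.46 CPM, with control 3 highest and control 4 lowest.

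Lists of cells outside the neural lineage were also detected in part, with the largest share (68.4%, against 54.9% of protein-coding genes) for mesenchyme and meninges. Endothelial genes were detected for 3 of 15, and their defining members Pecam1 and Cdh5 had 0.846 and 0.873 CPM. For pericytes the count was 2 of 9, led by Pdgfrb at 9.86 CPM. Mesenchyme and meninges had 13 of 19, led by the collagen gene Col1a2 with 55.02, 38.9, 52.7 and 80.8 CPM. Surface ectoderm had 4 of 18, with Krt14 and Krt15 at 0 reads. At the other sites of Nkx2-1, the thyroid and lung, the genes Sftpc, Sftpb and Scgb1a1 had 0 reads and Pax8 had 0.0556 CPM, and the 2 detected members, Foxa1 and Foxa2 with 36.8, 19.6, 35.1 and 66.9 and 2.63, 2.21, 5.89 and 12.5 CPM, are also genes of the ventral midline of the brain.

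Macrophage genes set control 4 apart. The growth factor receptor Csf1r had 0.966, 0.519, 0.617 and 28.4 CPM, the chemokine receptor Cx3cr1 0.456, 0.929, 0.948 and 17.8 CPM and the complement gene C1qa 0.0268, 0.3004, 0 and 11.3 CPM. Control 4 exceeded each other library by more than 10 times for all 3. The summed level of the 14 genes was 5.85, 6.53, 7.08 and 111 CPM, and Cd68 was the only member with at least 1 CPM in all 4 libraries. All 9 members averaging at least 1 CPM were highest in control 4, which itself carried most of them past that mean. The embryonic globin gene Hba-x had 21.7, 16.9, 12.5 and 64.9 CPM and Hbb-y 12.29, 14.1, 8.16 and 34.9 CPM, again highest in control 4, and the summed level of the red blood cell list was 143, 150.5, 122 and 254 CPM. Per the labels' protocols, globin RNA was not depleted. Apoe, made by macrophages and glia, had 14.3, 13.5, 16.7 and 55.04 CPM. Whether these cells had a part in the lower MGE factors of control 4 was not tested.

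**Figure D4:**
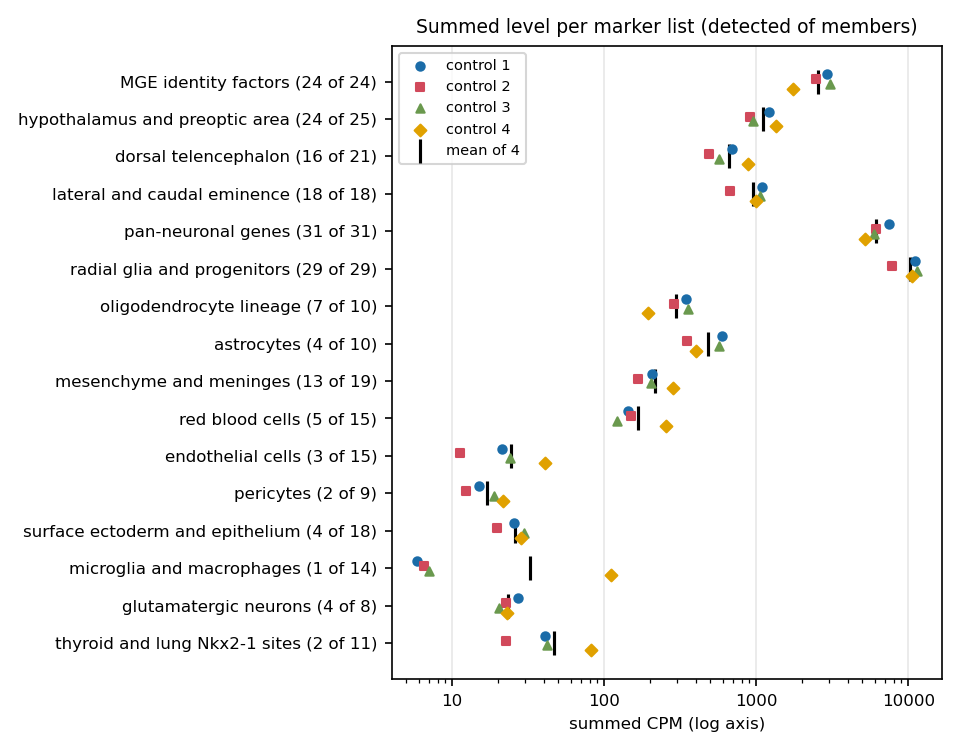
Summed CPM (log axis) of 16 marker lists in each control library, with a bar at the mean of 4 and, in brackets, how many of the members were detected. The MGE list is lowest in control 4, at 1737 CPM, and the macrophage list is highest there, at 111 CPM.

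Lists of later glia and of excitatory neurons were detected in part, where 54.9% of all protein-coding genes were detected. In the oligodendrocyte lineage 7 of 10 genes were detected, led by the progenitor factor Olig2, whereas the myelin genes Mag and Mog had 0.161 and 0.0805 CPM. For astrocytes the count was 4 of 10, and the defining genes Gfap and S100b had 0.0487 and 0 CPM. Of the glutamatergic list 4 of 8 were detected. The vesicular transporter Slc17a6, which is used in the hypothalamus, had 17.6, 11.9, 9.7 and 12.05 CPM, and Slc17a7, its counterpart in the cortex, had 0.487 CPM.

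Among genes that GENCODE M21 types as long non-coding, the highest in CPM after the ribosomal RNA-like genes RP23-81C12.3 and RP23-81C12.1 were Cct6a (a chaperonin subunit gene despite its type), Malat1, Rian, Tug1, Six3os1 and Miat. Malat1, a nuclear RNA, had 279, 406, 488 and 208 CPM and Tug1 255, 301, 244 and 239.6 CPM. Miat had 189, 88.9, 445 and 145 CPM and Meg3 151, 99.2, 316 and 137 CPM, and both were highest in control 3 and lowest in control 2. Six3os1 and Dlx6as1 had 214, 174, 304 and 232 and 103, 139.9, 96.6 and 53.4 CPM. These genes overlap or adjoin the genes Six3, Dlx5 and Dlx6 on the other strand, and whether counting used the strand is not known, so a pair's reads cannot be told apart.

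Magoh, the gene that the study alters elsewhere, had 68.1, 116, 63.5 and 74.9 CPM in these controls, and all 11 genes of the exon junction complex list were detected. Its close relative Magohb had 8.75, 14.5, 6.39 and 9.99 CPM. Both were highest in control 2. The partners Rbm8a and Eif4a3 had 163, 158, 147 and 156 and 169.5, 227, 166 and 178 CPM.

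Over 13163 genes averaging at least 1 CPM, the median SD of log2 CPM was 0.288, and the median SD that counting alone would give was 0.0438. The common biological coefficient of variation of an edgeR fit with an intercept only was 0.268. Without control 2, it was 0.186 and the median SD was 0.161. Leaving out control 1, 3 or 4 in its place gave coefficients of 0.304, 0.285 and 0.283.

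Control 2 was the library farthest from the mean of the other 3 for 59.3% of genes, against 10.9%, 13.0% and 16.7% for controls 1, 3 and 4. Controls 1 and 3 were the closest pair, with 246 genes (1.87%) at least 2-fold apart. Controls 1 and 4, and 3 and 4, had 544 and 593 such genes. The pairs with control 2 had 1645, 2081 and 1748. Every pair that included control 2 thus had more such genes than any pair without it.

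**Figure D5:**
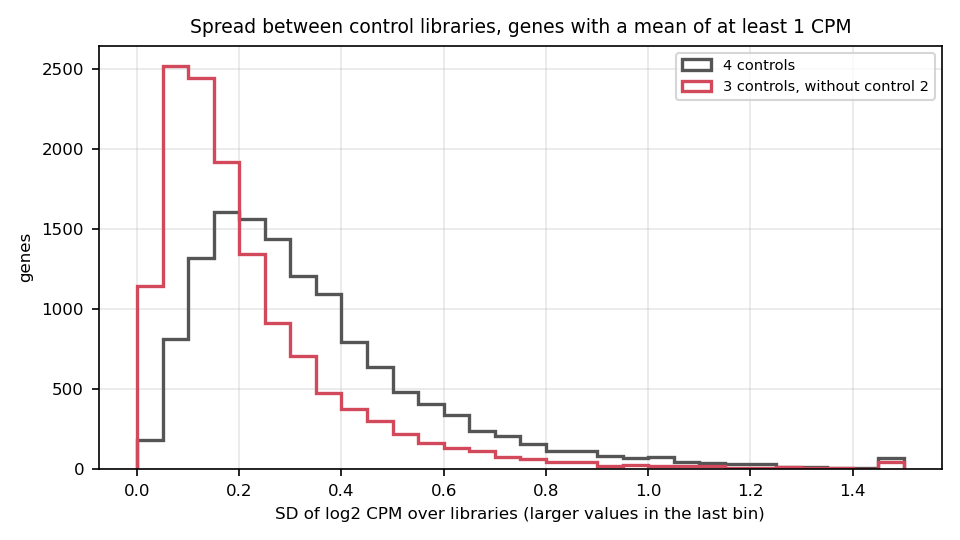
Histogram of the SD of log2 CPM over genes averaging at least 1 CPM, for all 4 control libraries (grey) and for the 3 without control 2 (red), with all larger values in the last bin. The median moves from 0.288 to 0.161 when control 2 is left out.

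In 322 genes (2.45%) the SD of log2 CPM was at least 1, and control 2 was the lowest library for 240 of them, against 40.5% of all 13163 genes. Their median exon length was 6021 bases, against 4539 over all 13163 genes. The count was 165 without control 2 and 199 after the trend of each library on exon length and GC content had been removed. Among 9057 named genes averaging at least 10 CPM, the 4 most variable were Xist and the Y-linked genes Kdm5d, Ddx3y and Uty. Kdm5d, a histone demethylase, had 42.2, 0, 40.9 and 37.4 CPM, and Ddx3y, an RNA helicase, 20.6, 0, 22.3 and 20.3 CPM. The labels give no sex of the embryos. By these genes control 2 differs in sex from the other libraries. Sex therefore cannot be told apart from whatever else sets control 2 apart.

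The next 10 genes in that order were all lowest in control 2, and the median exon length of the leading 15 was 10496 bases. Golgb1, a coiled-coil protein of the Golgi, had 66.7, 7.16, 109.9 and 64.6 CPM and Dst, a cytoskeletal linker, 94.3, 9.97, 139.8 and 98.99 CPM. Tpr, a filament of the nuclear pore, had 202, 27.8, 277 and 183 CPM and Cenpf, a kinetochore protein, 188, 28.4, 265 and 166 CPM. Syne2, Gcc2, Tmf1 and Bod1l behaved alike, with 41.6, 4.397, 2.27 and 11.3 CPM in control 2, against 350.3, 38.3, 26.8 and 101 CPM in control 3. Without control 2 the spread of Mki67 went from 1.61 to 0.37, that of Dst from 1.74 to 0.31 and that of Golgb1 from 1.75 to 0.43.

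Fgf15, the last of the leading 15, was the exception, since its spread was 1.33 with control 2 and 1.6 without it. It was the only one of the 15 that stayed among the 15 most variable genes when control 2 was left out. Among the genes that led then were, beside Fgf15, Zic4 with 16.5, 18.7, 40.2 and 6.02 CPM, the chloride channel Ano1 with 18.4, 10.1, 39.7 and 6.45 CPM, Hba-x, Robo3, Gsx2 and Apoe. Control 4 was the lowest library for Fgf15, Zic4, Ano1, Robo3 and Gsx2 and the highest for Hba-x and Apoe.

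At the other end, 15 genes had almost the same level in all 4 libraries. Gpr107, a membrane protein of the secretory pathway, had 83.8, 83.2, 84.00 and 83.4 CPM (spread 0.0062), and Sephs1, a selenophosphate synthetase relative, 176, 178, 175 and 177 CPM (spread 0.0095). The chromatin protein Cbx1 had 192, 195, 197 and 197 CPM, the arginine methyltransferase Prmt5 222, 223, 224 and 229 CPM and the ubiquitin-conjugating enzyme Ube2r2 259, 251, 255 and 254 CPM. The others were Ddx49, Tsc22d1, Telo2, Ggnbp2, Rrm1, Fiz1, Mrps27, Gtpbp4, Supt7l and Slc11a2. These spreads are below 0.0438, the median SD that counting alone would give over 13163 genes. Genes with many counts have a smaller counting error, and the spreads were not set against each gene's own. Which genes come last depends on the libraries and the processing. Of the 15, 0 stayed in the lowest 15 without control 2, and 0 after the trend on exon length and GC content was removed. Their spreads then ran from 0.020 (Ggnbp2) to 0.48 (Gpr107), against a median of 0.248 over genes averaging at least 1 CPM.

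By group, the median spread was 0.223 for S phase genes, 0.098 without control 2, against 0.275 and 0.153 over all detected genes. For the MGE factors it was 0.443 over 4 libraries and 0.509 without control 2, and for hypothalamic genes 0.440 and 0.439. For genes of the lateral and caudal eminences it went from 0.504 to 0.264. For G2 and M phase genes it went from 0.300 to 0.104 and for guidance genes from 0.485 to 0.224. The median spread of the MGE and hypothalamic lists was thus nearly as large or larger without control 2, whereas that of the lateral and caudal eminence, guidance and mitotic lists was smaller.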

How the data were processed

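RNA of sorted cells from 4 control libraries was sequenced, and 2 further libraries of the series were not used here. The authors' processing used Trim Galore, STAR and HTSeq with the mouse build mm10, per the submitters' processing notes; no version or strand setting is given there. The deposited count table holds whole read counts per gene for 38561 genes, and the deposited normalized table holds signal values that equal those counts divided by 1 factor per library. It served only for that check.

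Counts were scaled by TMM in edgeR 4.0.16 (R 4.3.3), and log2 CPM used a prior count of 2. Gene types, positions and exon lengths came from GENCODE M21, in which 36723 of the gene IDs matched. The spread procedure was tested on simulated data. With 1 group no test between groups was made; Dixon's limit for 4 values was used to mark single distant libraries. DESeq2 1.42.0, other scalings, minimum levels and left-out libraries were tried as alternatives. Members, lists and the rule for named genes were chosen with earlier results of these data known. The rule took the 5 markers, the 20 genes of highest CPM and 10 of highest CPM per kb, the leading 6 and any absent defining members of each list, the leading 15 regulators and 8 long non-coding RNAs, and the 15 genes of largest and 15 of smallest spread at a mean of at least 10 CPM. Further genes were named after their values were seen, and some that the rule takes are not reported here. Totals of 37429290 to 44198702 counts set the counting error.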

Additional observations from a re-analysis of the deposited data

Results flagged for a closer look

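Of 209 genes named in the report, 25 had 1 library far from the other 3, with a gap to its nearest neighbour that took up most of the whole range (Dixon's limit for 4 values). Chance alone does so in about 1 in 20 groups of this size, but the genes were named in part for their spread or after their values were seen, so the count is not to be read against that share. The distant library was control 2 for 12 of these genes, control 4 for 8, control 1 for 3 and control 3 for 2. Of 31 marker lists, 1 stood apart in the same way, and of 8 measures of the libraries themselves 0 did.

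Control 2 was the distant low library for Nedd4 at 1516 CPM (2215 to 2276 in the others), Ephb2 at 270.1 CPM (691 to 741 in the others) and Plxna1 at 236 CPM (459 to 504 in the others). Next were Sox2 at 324 CPM (398 to 408 in the others), Notch2 at 119 CPM (199 to 214 in the others) and Kdm5d at 0 CPM (37.4 to 42.2 in the others). To these came Ddx3y at 0 CPM (20.3 to 22.3 in the others) and Uty at 0 CPM (16.7 to 19.3 in the others). It was the distant high library for Tpt1 at 2824 CPM (1498 to 1689.8 in the others), Pcna at 514 CPM (313 to 325 in the others) and Ccna2 at 299 CPM (251 to 259 in the others). The last of these was Xist at 92.5 CPM (0 to 0.0441 in the others). Ephb2 and Plxna1 are guidance receptors, Notch2 and Sox2 act in progenitors, and Pcna and Ccna2 belong to the cell cycle machinery.

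Control 4 was the distant high library for Hes1 at 82.6 CPM (50.8 to 54.05 in the others), Fgf10 at 52.99 CPM (16.4 to 20.9 in the others) and Apoe at 55.04 CPM (13.5 to 16.7 in the others). Next were Fgf8 at 16.8 CPM (6.99 to 8.64 in the others), Csf1r at 28.4 CPM (0.519 to 0.966 in the others) and Cx3cr1 at 17.8 CPM (0.456 to 0.948 in the others). The last was C1qa at 11.3 CPM (0 to 0.3004 in the others). The gene for which it was the distant low library was Dlx1 at 76.1 CPM (139 to 152 in the others). The summed macrophage list had 111 CPM there, against 5.85 to 7.08 CPM in the others. Csf1r, Cx3cr1 and C1qa are members of that list, Hes1 is a target of Notch, and Fgf8 and Fgf10 are ligands of midline tissue.

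Control 3 was the distant high library for Spry1 at 68.1 CPM (35.6 to 41.05 in the others) and Emx1 at 1.102 CPM (0.246 to 0.384 in the others). Control 1 was the distant high library for Mog at 0.322 CPM (at 0 in the others), Pvalb at 0.0537 CPM (at 0 in the others) and Neurod6 at 0.0268 CPM (at 0 in the others). The values of these 3 genes in control 1 come from 1 to 12 reads, and a gene read in a single library always stands apart by this measure.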

How the results depend on the processing

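The count of genes with an SD of log2 CPM of at least 1 (322) depended most on the choices made. It was 97 for genes averaging at least 10 CPM, 3123 with a single read as the minimum, and 199 after the trend on exon length and GC content was removed, and it ran from 165 (without control 2) to 554 (without control 1) when 1 library was left out. The median spread was 0.404 with a single read as the minimum, and under the other settings it ran from 0.161 (without control 2) to 0.311 (without control 1). Medians and the biological coefficient of variation were held to the same 1.5-fold limit as counts. The number of detected genes stayed between 12378 and 12641 under other scalings and left-out libraries, and was 15166 at 0.1 CPM and 8685 at 10 CPM. The coefficient of variation was 0.186 to 0.304 with 1 library left out, 0.367 without a filter and 0.235 in DESeq2. Of the 15 most variable genes, 15 were shared under RLE scaling and 1 without control 2. List levels under other settings were added after the data were seen: of 217 counts of detected members 2 moved, both without control 2 (endothelial genes from 3 to 5, and X inactivation and Y-linked genes from 0 to 4). Leaving out 1 of 4 libraries cannot move a mean by a whole SD, so that measure says nothing of the summed levels; the macrophage sum was 32.7 CPM over 4 libraries and 6.46 CPM without control 4. No paired analysis was possible because the libraries form a single group. Depth limits levels under 0.0661 to 0.0819 CPM.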

Other observations

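Gene families outside the neural identity lists gave further levels in the 4 controls, where 54.9% of all protein-coding genes were detected. Of the voltage-gated sodium channels 6 of 9 genes were detected, led by Scn3a, the embryonic neuronal channel, with 31.5, 21.8, 25.4 and 16.3 CPM. Of calcium channel alpha subunits 7 of 9 were detected, led by the low-threshold channel Cacna1h with 102, 54.2, 102 and 81.7 CPM. Potassium channels were detected for 39 of 95. Glutamate receptor subunits were detected for 17 of 26, led by the kainate receptor genes Grik5 and Grik3 with 159 ± 21.05 and 96.5 ± 41.1 CPM, and the NMDA receptor gene Grin1 had 2.41 ± 0.498 CPM.

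Among immediate early and stress genes 15 of 26 were detected, against 54.9% of all protein-coding genes. Fos had 0.939, 2.49, 2.38 and 4.895 CPM, Egr1 1.72, 2.59, 5.38 and 9.11 CPM and the heat shock gene Hspa1a 0.698, 0.137, 0.154 and 0.293 CPM. Glycolytic and hypoxia genes were detected for 23 of 27, of which the hypoxia genes Car9 and Adm had 0.426 and 0.309 CPM. Members of respiratory complex I encoded in the nucleus were detected for 44 of 45, and control 2 was the highest library for 41 of 44, where it was highest for 37.4% of all genes averaging at least 1 CPM. Proteasome subunits were detected for 35 of 39, with control 2 highest for 29 of 35, while the immunoproteasome subunits Psmb8 and Psmb9 had 0.114 and 0.141 CPM. Neither count for control 2 was set against genes of like exon length.

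Replication-dependent histone genes were detected for 51 of 70. Their messages lack a poly(A) tail, and copies share much sequence, so their counts are uncertain. Of the 55 members averaging at least 1 CPM, 43 were highest in control 2 and 36 lowest in control 4, against 37.4% and 18.8% of all such genes. On the mitochondrial chromosome, mt-Co1 had 8966 ± 2744 CPM and mt-Cytb 5129 ± 1298 CPM, whereas mt-Co2, mt-Co3 and mt-Atp6 had 13.1, 17.5 and 9.79 CPM. Whether values this far apart on the same chromosome reflect RNA levels or the assignment of reads was not tested. The low values are therefore not to be read as low RNA levels.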
